A study of Homo sapiens with 6 samples.

Results

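The 9 genes described here are 6 antioxidant enzymes that the transcription factor NRF2 is known to switch on (HMOX1, NQO1, GCLC, GCLM, TXNRD1 and SRXN1) and 3 metallothioneins (MT2A, MT1E and MT1X). They were taken by gene symbol from the 61552 genes of the deposited table, and all 9 were found. Poly(A) RNA was sequenced from SKOV3, an established human ovarian cancer line, treated for 48 h with 1 µM of the anthelmintic fenbendazole, a tubulin-binding benzimidazole, or with the vehicle DMSO. Each group held 3 libraries, DMSO 10, 11 and 12 and fenbendazole 7, 8 and 9 by the numbers in their titles. SKOV3 cells in culture, a single line, were the only model, and the direction of every difference rests on the submitters' labels.

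NRF2, encoded by NFE2L2, is held in the cytoplasm and marked for destruction by KEAP1. Oxidants and electrophiles act on cysteines of KEAP1, so that NRF2 builds up and binds antioxidant response elements (ARE) in its target genes, while BACH1 represses some of the same genes. Metallothioneins are small cysteine-rich proteins that bind zinc, copper and cadmium. Their genes lie in a cluster on chromosome 16 and are switched on by the zinc-sensing factor MTF1 through metal response elements (MRE), and also by glucocorticoids and cell stress.

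Of the 9 genes, 8 had enough counts to be tested, and 2 passed the test, both higher with fenbendazole. MT2A rose 2.38-fold and TXNRD1, thioredoxin reductase, rose from a mean of 344.8 to 550.4 CPM (read counts scaled to a common library size). HMOX1, NQO1, GCLC, GCLM, SRXN1 and MT1X did not pass with all 6 libraries. The test was edgeR's quasi-likelihood test over 17363 genes at a Benjamini-Hochberg adjusted p of 0.05, which called 4.03% of tested genes, 3.11% higher and 0.921% lower. Upper-quartile scaling turned the 540 higher and 160 lower genes behind those shares into 455 and 231. By group, 1 of 6 enzymes rose and 0 fell (median log2 fold change 0.19, and 0.011 without DMSO 12), and 1 of 2 tested metallothioneins rose and 0 fell (0.96). The median over all tested genes was -0.058.

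Total counts ran from 13170775 to 22128930 per library. DMSO 11 stood apart from the other 5: the root mean square of its log2 differences from the median library was 0.662 over tested genes, against 0.258 to 0.331 elsewhere. Without it, 22.3% of 17689 genes passed the test. SKOV3 and epithelial markers were present in every library (KRT7, KRT8, KRT18, ERBB2, PAX8 and EPCAM, lowest value 54.8 CPM), while CD3E and APOA1 were at 0 in all 6. The 6 summed to 8700 to 17300 CPM in DMSO and 5230 to 5780 CPM with fenbendazole, most of it ERBB2 (7806 to 15880 and 4224 to 4632 CPM). KRT7 was higher in every treated library (71.3 to 182.5 and 224.7 to 230.6 CPM), PAX8 was lower in each, and KRT8, KRT18 and EPCAM overlapped between groups. Hepatocyte markers, all ALB, were at 0 to 0.501 CPM in DMSO and 0.505 to 1.24 CPM with fenbendazole. The 3 endothelial markers summed to 9.7 to 11.6 CPM in DMSO and to 12.1 CPM or more with fenbendazole. Nearly all of that sum was PECAM1, with VWF at no more than 0.294 CPM and CDH5 at no more than 0.177 CPM. Summed leukocyte markers (11.8 to 18.3 and 14.6 to 16.8 CPM) and fibroblast markers (46.1 to 94.3 and 44.6 to 48.3 CPM) overlapped between groups. The leukocyte sum was nearly all CD68 (11.5 to 17.9 CPM), and the fibroblast sum was mostly COL1A1 (34.8 to 80.4 CPM). COL1A2 was lower in every treated library (10.14 to 13.95 CPM in DMSO and 6.01 to 7.94 CPM with fenbendazole). The part of these markers in the results below was not tested. Since these are bulk samples, fewer cells of a kind and less RNA per cell cannot be told apart. Nothing in the labels says whether the libraries of a group came from separate cultures, and the spread behind each p-value may therefore be technical.

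The coding sequences of the 3 metallothioneins are shown because their likeness bears on how reads are assigned among them. Each has 186 bases including the stop codon, with 20 cysteine codons among 61. They are GENCODE release 29 sequences, written 5′ to 3′, with capitals where a base is unlike MT2A at the same position.
MT2A: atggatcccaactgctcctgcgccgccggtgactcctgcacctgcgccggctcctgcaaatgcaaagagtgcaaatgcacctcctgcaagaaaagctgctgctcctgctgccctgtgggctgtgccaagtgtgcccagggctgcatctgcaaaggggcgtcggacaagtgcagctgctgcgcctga
MT1E: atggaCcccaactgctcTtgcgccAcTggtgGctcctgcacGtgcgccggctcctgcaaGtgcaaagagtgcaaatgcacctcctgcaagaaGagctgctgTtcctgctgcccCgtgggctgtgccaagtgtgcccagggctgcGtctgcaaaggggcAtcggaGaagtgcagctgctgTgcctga
MT1X: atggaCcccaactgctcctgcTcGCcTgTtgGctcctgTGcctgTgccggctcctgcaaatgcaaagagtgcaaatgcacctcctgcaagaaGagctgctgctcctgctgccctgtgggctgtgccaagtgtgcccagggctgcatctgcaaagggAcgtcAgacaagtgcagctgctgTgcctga
MT1E and MT1X each have 14 such bases and 92.5% identity to MT2A. Of all 50-base stretches of the longest annotated transcript, 4.68% for MT2A, 10.6% for MT1E and 14.7% for MT1X also occur in transcripts of other genes. At 100 bases the shares are 0% for MT2A, 0% for MT1E and 7.68% for MT1X. The stretches of MT1X shared at 100 bases occur in AC026461.1 only, not in MT2A or MT1E. At 50 bases the shares of MT1X and MT1E exceed that of MT2A, but at 100 bases MT1E and MT2A are alike. The read length is not given in the sources used here, so how certain the 3 values are relative to each other is not known.

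Promoter windows of 250 bases before the RefSeq start site (GRCh38.p14) are shown for both metallothioneins that were tested and for 2 enzymes of different outcome, TXNRD1 and GCLM. RefSeq promoter entries matched 7 of the 9 genes. Metal response element cores were searched as TGCACNC or TGCGCNC and antioxidant response element cores as TGACNNNGC, on both strands. In the windows of MT2A (chr16:56608334-56608583, plus strand) and MT1X (chr16:56682220-56682469, plus strand), capitals mark metal response element cores.
MT2A: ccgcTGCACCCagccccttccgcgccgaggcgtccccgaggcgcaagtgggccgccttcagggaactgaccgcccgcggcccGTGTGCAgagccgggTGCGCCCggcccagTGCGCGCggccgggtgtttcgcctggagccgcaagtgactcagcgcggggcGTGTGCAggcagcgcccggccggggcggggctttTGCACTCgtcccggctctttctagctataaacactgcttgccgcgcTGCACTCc
MT1X: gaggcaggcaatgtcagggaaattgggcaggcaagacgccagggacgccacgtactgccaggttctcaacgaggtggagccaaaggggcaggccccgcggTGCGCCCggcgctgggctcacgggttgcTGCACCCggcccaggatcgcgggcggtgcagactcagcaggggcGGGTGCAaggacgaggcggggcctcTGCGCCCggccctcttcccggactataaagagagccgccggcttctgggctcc
MT2A has 7 such matches and MT1X has 4, and 0.366% of 27305 promoter windows of this length have 4 or more. At least 1 match was found in 24.7% of windows, among them those of GCLC (2 matches), GCLM (1) and the upstream start site of TXNRD1 (1). In the windows of TXNRD1 (chr12:104286782-104287031, plus strand, the downstream of its 2 listed start sites) and GCLM (chr1:93909431-93909680, minus strand), capitals mark antioxidant response element cores.
TXNRD1: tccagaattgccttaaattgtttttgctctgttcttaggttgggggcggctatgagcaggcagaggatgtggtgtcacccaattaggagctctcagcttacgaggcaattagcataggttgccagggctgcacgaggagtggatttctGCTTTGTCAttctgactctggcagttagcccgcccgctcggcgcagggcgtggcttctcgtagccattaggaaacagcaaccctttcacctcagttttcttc
GCLM: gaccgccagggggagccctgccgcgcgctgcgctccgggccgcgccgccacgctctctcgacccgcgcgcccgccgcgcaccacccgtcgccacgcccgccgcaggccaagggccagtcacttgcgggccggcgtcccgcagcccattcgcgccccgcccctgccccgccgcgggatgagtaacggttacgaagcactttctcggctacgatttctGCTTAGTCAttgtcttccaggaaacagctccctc
Each holds 1 match, and 3013 of the 27305 windows hold at least 1. The upstream start site of TXNRD1, MT2A and MT1X also have 1 match each to the antioxidant core, and the windows of NQO1, GCLC and SRXN1 have 0. A match of letters is a description of the window and shows no binding. Only these 250 bases were searched, so a window with 0 matches does not mean that the gene lacks such an element elsewhere.

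MT2A encodes the most widely expressed metallothionein (ENSG00000125148, chromosome 16, 56608584 to 56609497, plus strand, GRCh38). Its level was 40.8, 52.2 and 37.6 CPM in DMSO 10, 11 and 12 and 92.8, 108.2 and 109.7 in fenbendazole 7, 8 and 9. CPM were scaled between libraries by edgeR's trimmed mean of M values (TMM). Every treated library was above every control, and DMSO 11 was the highest of the controls. The means were 43.5 ± 7.68 and 103.5 ± 9.38 CPM (SD, n = 3 each), a log2 fold change of 1.25 ± 0.165 (SE), with a 95% interval of 1.82-fold to 3.10-fold (edgeR adjusted p = 0.00844). Without DMSO 11 the change was 1.41 (adjusted p = 2.16e-07). Leaving out DMSO 10, fenbendazole 8 or fenbendazole 9 ended the call, with adjusted p of 0.052, 0.0646 and 0.0703 and changes of 1.20, 1.22 and 1.21. So did limma on unfiltered FPKM (0.0692).

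MT1X, a metallothionein of the same cluster (ENSG00000187193, chromosome 16, 56682470 to 56684196), was at 6.02, 4.48 and 5.88 CPM in DMSO 10, 11 and 12 and 8.81, 9.31 and 8.07 CPM with fenbendazole 7, 8 and 9, from 79 to 137 counts per library. The groups do not overlap, and the treated values lie close together. Its log2 fold change of 0.68 ± 0.219 (SE) did not pass the test (edgeR adjusted p = 0.135), and the 95% interval runs from 1.13-fold to 2.28-fold. With DESeq2 the adjusted p was 0.0432, and with offsets for GC content and transcript length it was 0.04. MT1X passed in only 4 of 16 alternatives. Among those it failed were limma-voom (adjusted p = 0.124) and edgeR without fenbendazole 8 (0.381).

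MT1E (ENSG00000169715, chromosome 16, 56625475 to 56627112) had 2, 2 and 0 counts in DMSO 10, 11 and 12 and 3, 0 and 0 with fenbendazole 7, 8 and 9. Too few counts were present for a test or a fold change. The 3 counts that a count of 0 allows correspond to 0.223 CPM in DMSO 12 and to 0.216 and 0.177 CPM in fenbendazole 8 and 9, for counting error only. Across 19 metallothionein genes and pseudogenes, 10 had 0 counts in all 6 libraries. The 17 other than MT2A and MT1X held 4 to 13 counts per library in all, too few for a difference to be detectable. MT2A made up 85.8%, 91.5% and 85.0% of metallothionein counts in DMSO 10, 11 and 12, and 91.1%, 91.6% and 92.9% in fenbendazole 7, 8 and 9. MT1X made up nearly all of the rest, at 6.83% to 13.3%.

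**Figure D1:**
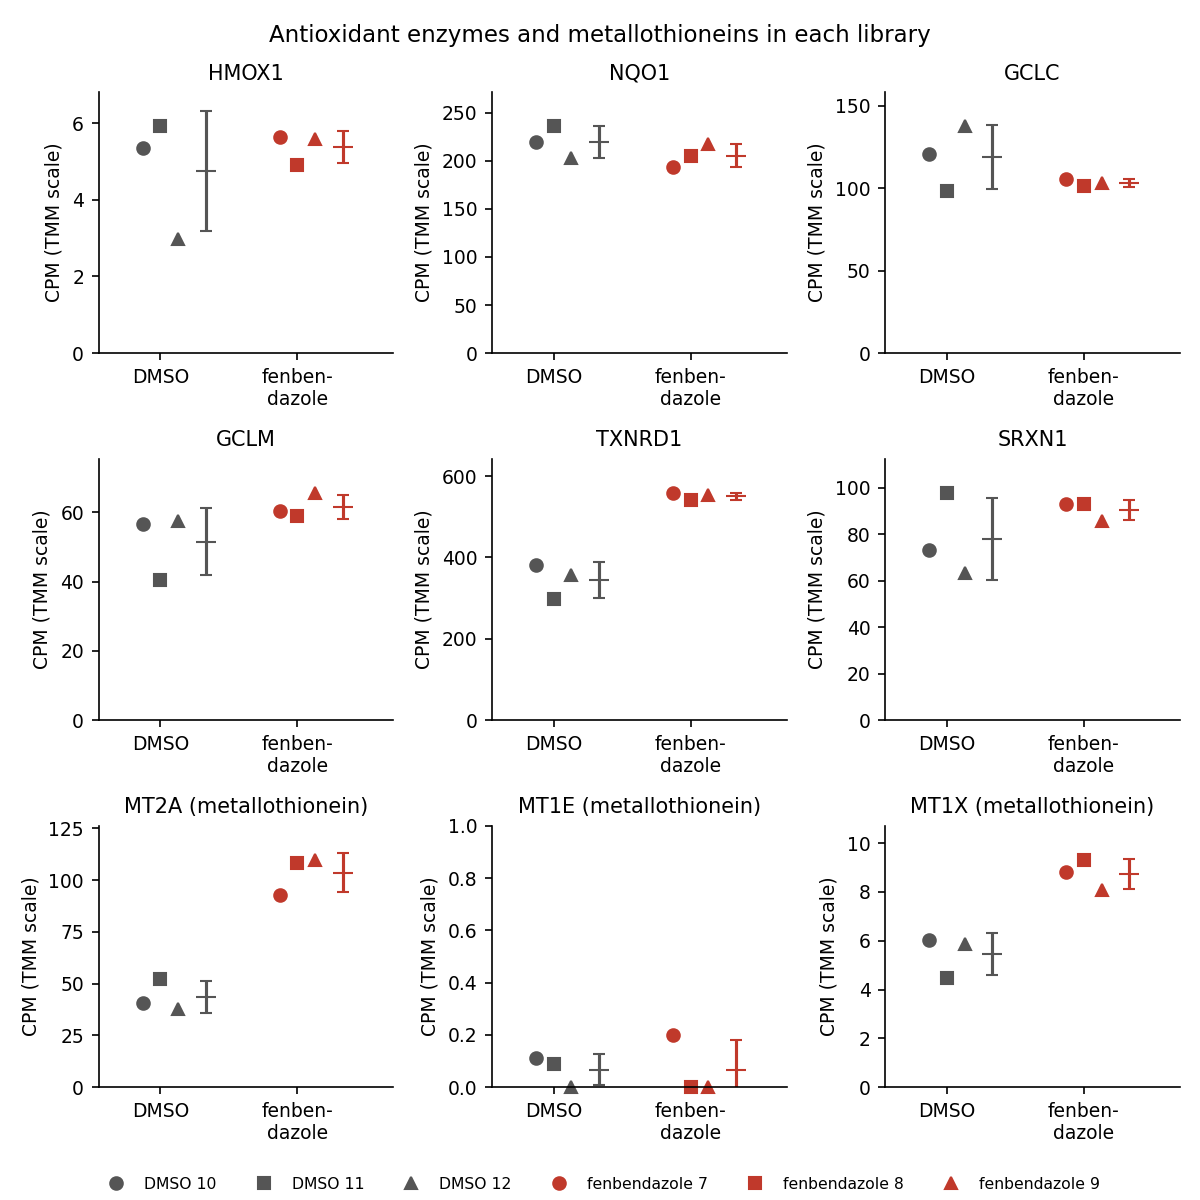
Level of each of the 9 genes in each library, in CPM on the TMM scale, with the mean and SD of the 3 libraries of a group beside the points. MT2A, MT1X, TXNRD1 and GCLM have no overlap between groups, and MT1E lies at or near 0 in every library.

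Thioredoxin reductase 1, encoded by TXNRD1 (ENSG00000198431, chromosome 12, 104215779 to 104350307), keeps thioredoxin reduced with NADPH and is a selenoprotein. Its level was 381.3, 296.9 and 356.0 CPM in DMSO 10, 11 and 12. With fenbendazole 7, 8 and 9 it was 558.2, 540.6 and 552.3 CPM. Controls spread over a wider range than treated libraries, and DMSO 11 was the lowest of all. Group means of 344.8 ± 43.3 and 550.4 ± 8.96 CPM (SD, n = 3 each) gave a log2 fold change of 0.67 ± 0.129 (SE), with a 95% interval of 0.37 to 0.98 (edgeR adjusted p = 0.0315). Without DMSO 11 the change was 0.59 (adjusted p = 9e-06). The call was lost without DMSO 10 (0.0727), DMSO 12 (0.0657) and without any 1 of the treated libraries (0.148 to 0.178). Upper-quartile scaling (0.0555) and unfiltered FPKM (0.0679) ended it as well. Overlaps with RPL18AP3 (7 to 56 counts) and EID3 (19 to 46 counts) on the same strand are small beside its 4786 to 9379 counts.

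SRXN1 encodes sulfiredoxin, which restores overoxidized peroxiredoxins (ENSG00000271303, chromosome 20, 646615 to 653200). It stood at 73.1, 97.8 and 63.3 CPM in DMSO 10, 11 and 12 and at 92.9, 93.2 and 85.6 CPM in fenbendazole 7, 8 and 9. DMSO 11 was above all treated libraries and the other controls were below them. With all libraries the log2 fold change was 0.21 ± 0.177 (edgeR adjusted p = 0.515; 95% interval from 0.871-fold to 1.54-fold), and without DMSO 11 it was 0.42 (0.00406). A protein-coding entry on the same strand, ENSG00000270299, overlaps SRXN1 and shares 84.7% of its 50-base stretches. That entry held 0 to 55 counts per library against 851 to 2229 for SRXN1, so the split between them is uncertain.

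Glutathione synthesis is limited by glutamate-cysteine ligase, made of a catalytic subunit (GCLC, ENSG00000001084, chromosome 6, 53497341 to 53616970) and a modifier subunit (GCLM, ENSG00000023909, chromosome 1, 93885199 to 93909456). GCLC was at 120.6, 98.7 and 137.8 CPM in DMSO 10, 11 and 12 and at 105.9, 101.2 and 103.3 CPM in fenbendazole 7, 8 and 9. DMSO 11 was below the treated libraries and the other controls above them. Its log2 fold change was -0.20 ± 0.148 (edgeR adjusted p = 0.461; 95% interval from 0.685-fold to 1.11-fold), and -0.31 without DMSO 11 (0.0102). GCLM was at 56.7, 40.5 and 57.6 CPM in the controls and at 60.4, 59.0 and 65.6 CPM with fenbendazole. The treated libraries lie just above the controls. Its log2 fold change was 0.26 ± 0.170 (adjusted p = 0.409; 95% interval from 0.909-fold to 1.58-fold), 0.12 without DMSO 11 (0.394), and -0.023 with offsets for GC content and length (0.9).

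NQO1, a quinone reductase often used as a readout of NRF2 (ENSG00000181019, chromosome 16, 69706996 to 69726668), was at 219.6, 236.0 and 203.1 CPM in DMSO 10, 11 and 12. In fenbendazole 7, 8 and 9 it was at 193.8, 204.4 and 217.8 CPM. The groups overlap, and a log2 fold change of -0.10 ± 0.119 did not pass the test (edgeR adjusted p = 0.668). The 95% interval runs from 0.772-fold to 1.13-fold, the narrowest of the 8 tested genes. HMOX1, heme oxygenase 1, which breaks down heme and is repressed by BACH1 (ENSG00000100292, chromosome 22, 35380361 to 35394214), was at 5.35, 5.92 and 2.98 CPM in the controls and 5.63, 4.91 and 5.60 CPM with fenbendazole, from 40 to 135 counts. DMSO 12 was low and the other 5 libraries lie close together. Its log2 fold change was 0.17 ± 0.299 (adjusted p = 0.77; 95% interval from 0.695-fold to 1.82-fold) and -0.064 without DMSO 12.

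**Figure D2:**
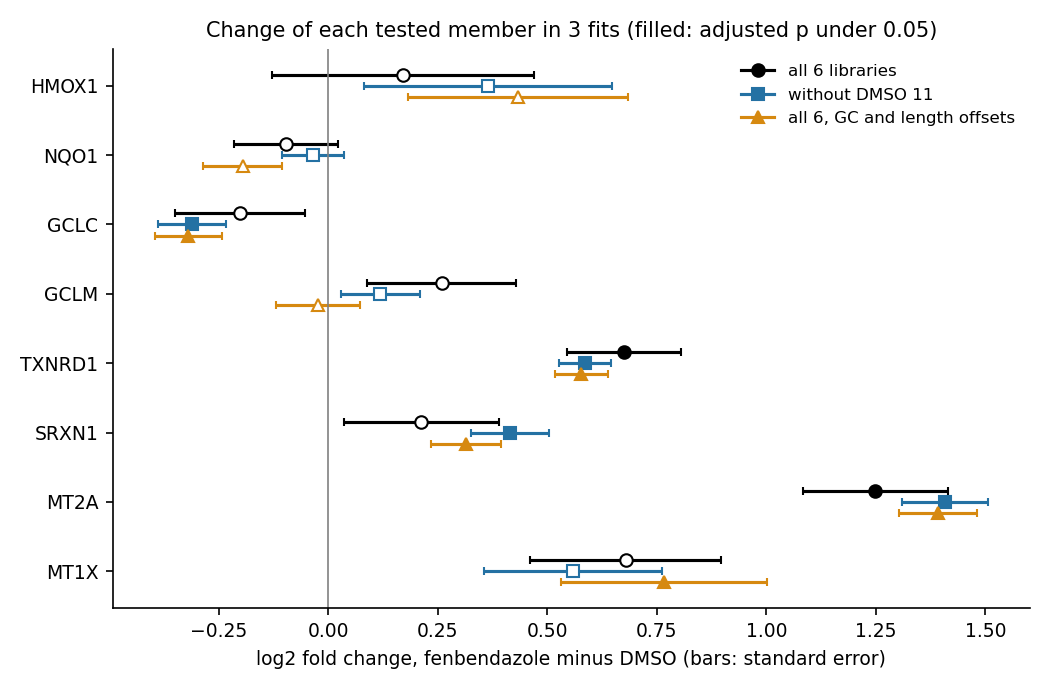
Log2 fold change of the 8 tested genes (fenbendazole minus DMSO, bars show the standard error) with all 6 libraries, without DMSO 11, and with offsets for GC content and transcript length. MT2A and TXNRD1 are past an adjusted p of 0.05 (filled) in all 3 fits, GCLC lies below 0 in each, and GCLM crosses 0 with offsets.

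DMSO 11 departed from the other controls in both directions. Relative to the mean of DMSO 10 and 12, DMSO 11 was 1.33 times as high for MT2A, 1.43 times for SRXN1 and 1.42 times for HMOX1. The ratio was 0.805 for TXNRD1, 0.764 for GCLC, 0.753 for MT1X and 0.708 for GCLM. Without DMSO 11, 4 of the 8 genes passed: MT2A, TXNRD1 and SRXN1 higher and GCLC lower, against 22.3% of all genes tested in that fit (13.1% higher and 9.23% lower). Only 2 controls remain in it. With offsets for GC content and length the same 4 passed and MT1X rose too, 5 of 8 against 21.6% of genes (12.1% higher and 9.52% lower).

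Groups that do not overlap were seen for 4 of 8 tested genes (MT2A, MT1X, TXNRD1 and GCLM), each higher with fenbendazole, against 17.0% of tested genes higher without overlap. Ratios of raw counts within a library, which do not depend on scaling between libraries, show the unequal change of the members. MT2A had 18.6, 22.1 and 18.5 counts per 100 NQO1 counts in DMSO 10, 11 and 12 and 47.8, 52.9 and 50.4 with fenbendazole 7, 8 and 9. TXNRD1 had 174, 126 and 175 per 100 NQO1 counts in the controls and 288, 264 and 254 with fenbendazole. For each of these ratios the gap between groups is wider than the range within either group. GCLM had 47.0, 41.0 and 41.8 counts per 100 GCLC counts in the controls and 57.1, 58.3 and 63.5 with fenbendazole, so the modifier subunit was higher relative to the catalytic subunit in all treated libraries. MT1X had 14.8 and 15.6 counts per 100 MT2A counts in DMSO 10 and 12, but 8.58 in DMSO 11, within the treated values of 9.49, 8.61 and 7.35.

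**Figure D3:**
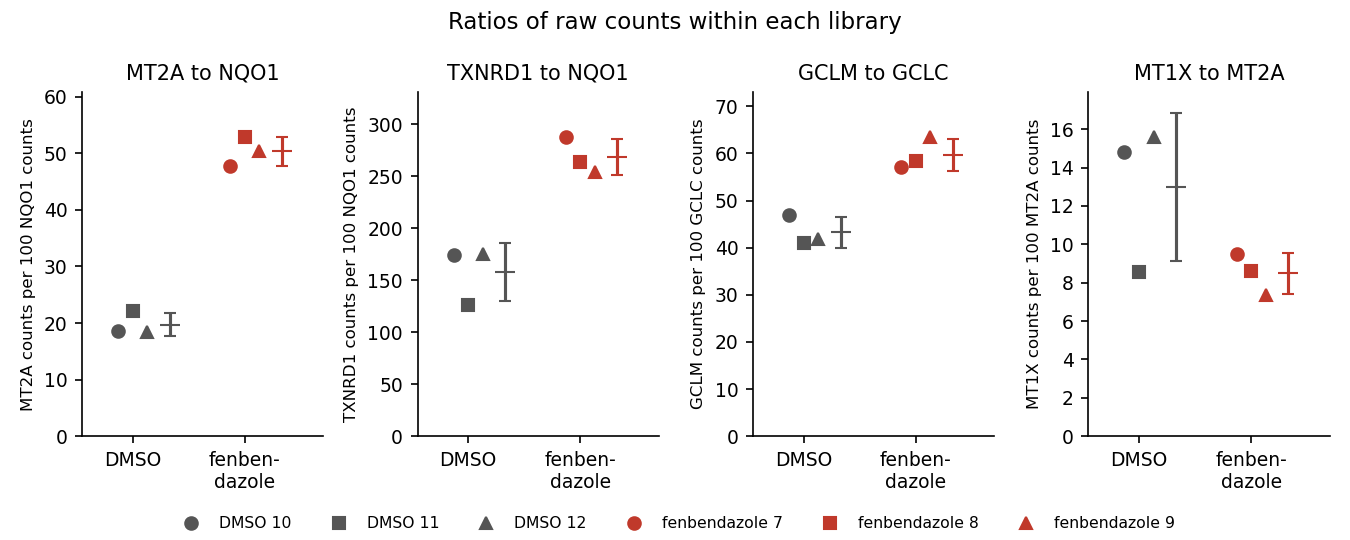
Ratios of raw counts within each library, per 100 counts of the second gene, with the mean and SD of 3 libraries. MT2A and TXNRD1 relative to NQO1, and GCLM relative to GCLC, are higher in all 3 treated libraries, while for MT1X relative to MT2A the library DMSO 11 lies among the treated ones.

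Levels between genes were compared on the authors' FPKM, which divide by transcript length. In DMSO, MT2A was at 97.2 ± 21.1, NQO1 at 81.5 ± 9.34 and TXNRD1 at 80.6 ± 6.72 FPKM (SD, n = 3 each), and their ranges overlap. GCLC (31.0 ± 4.95) and SRXN1 (27.9 ± 7.45) followed and overlap as well, then MT1X (10.3 ± 1.23) and GCLM (9.77 ± 1.25), also overlapping. HMOX1 was at 2.68 ± 1.04 FPKM, and MT1E was at 0.0767 and 0.0692 in DMSO 10 and 11 and listed at 0 in DMSO 12. With fenbendazole the order was MT2A (217.9 ± 19.6), TXNRD1 (123.2 ± 2.20), NQO1 (71.9 ± 4.23), SRXN1 (30.5 ± 1.90), GCLC (25.2 ± 1.20), MT1X (17.0 ± 1.86), GCLM (10.9 ± 0.592) and HMOX1 (2.90 ± 0.238 FPKM). In the treated libraries no neighbours in that order overlap.

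The rest of the NRF2 program was taken from a list of 40 other targets. Where edgeR called 4.03% of all tested genes, it called 0 of the 39 targets tested. An unadjusted p under 0.05 was found for 10 of them, and for 3699 of all 17363 tested genes. DESeq2 called 5, 3 higher and 2 lower, where it called 11.3% of all tested genes (6.65% higher and 4.65% lower). The median log2 fold change was -0.24, against -0.058 over all tested genes, and without DMSO 11 it was -0.13 against -0.007. The genes of smallest p were IDH1, cytosolic isocitrate dehydrogenase, at 145.2, 115.1 and 145.0 CPM in the controls and 84.4, 93.1 and 86.7 CPM with fenbendazole (log2 fold change -0.62 ± 0.138, adjusted p = 0.0552), and MGST1, a membrane glutathione transferase (0.67 ± 0.161, adjusted p = 0.0674). IDH1 passed in 6 of 16 alternatives and MGST1 in 5. With all libraries the adjusted p of IDH1 was 0.00301 in DESeq2 and 2.85e-05 in edgeR with offsets for GC content and length. Without DMSO 11, 13 of 39 targets passed, 4 higher and 9 lower, among them IDH1 lower (-0.71) and MGST1 higher (0.66). In that fit 22.3% of all tested genes passed (13.1% higher and 9.23% lower). Calls in that fit thus went in both directions. With offsets for GC content and length 15 of the 39 targets passed, 5 higher and 10 lower. The offset fit called 21.6% of all genes (12.1% higher and 9.52% lower).

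Among 15 regulators of NRF2, 0 passed with edgeR, where 4.03% of all tested genes passed. DESeq2 called 0 of the 15, where it called 11.3% of all tested genes. With edgeR 2 had an unadjusted p under 0.05, against 3699 of all 17363 tested genes. Without DMSO 11, 3 of the 15 passed, all higher (CUL3, MAFF and PALB2), where 22.3% of all genes passed (13.1% higher and 9.23% lower). With offsets for GC content and length MAFF and PALB2 passed, both higher, where 21.6% of all genes passed (12.1% higher and 9.52% lower). CUL3 and MAFF fall outside the rule for named genes and were chosen after their values were seen. NFE2L2 was at 229.4, 148.5 and 289.0 CPM in DMSO 10, 11 and 12 and 254.7, 242.7 and 264.1 CPM in fenbendazole 7, 8 and 9 (log2 fold change 0.19 ± 0.227, adjusted p = 0.654, and -0.022 without DMSO 11). KEAP1 was at 39.4, 70.7 and 32.2 CPM in the controls and 34.0, 39.4 and 32.6 CPM with fenbendazole (-0.43 ± 0.291, adjusted p = 0.423, and -0.016 without DMSO 11). For both genes DMSO 11 lies outside the range of the other 5 libraries. BACH1 was at 65.7 ± 18.1 and 84.7 ± 3.57 CPM (SD, n = 3 each; edgeR adjusted p = 0.346), a log2 fold change of 0.37 that was 0.17 without DMSO 11. PALB2 and DPP3, which can compete with NRF2 for KEAP1, had the smallest p, with log2 fold changes of 0.75 ± 0.258 (adjusted p = 0.155) and -0.49 ± 0.209 (0.233). Without DMSO 11 these were 0.52 (edgeR adjusted p = 0.00819) and -0.22 (0.13).

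Of 23 other redox enzymes, 1 fell and 0 rose, where 4.03% of all tested genes passed (3.11% higher and 0.921% lower). CAT, catalase, which breaks down hydrogen peroxide in peroxisomes, was at 162.7, 144.8 and 163.8 CPM in DMSO 10, 11 and 12 and at 83.5, 90.6 and 78.0 CPM in fenbendazole 7, 8 and 9. All treated libraries were lower, with a log2 fold change of -0.90 ± 0.125 (edgeR adjusted p = 0.00946), a fall to 0.535 of the control level. Without DMSO 11 it was -0.95 (9.4e-07). Leaving out DMSO 10 ended the call (0.0518), as did leaving out fenbendazole 7 (0.0862), 8 (0.0635) or 9 (0.0924). The median of the list was -0.17, and -0.11 without DMSO 11 or without DMSO 12. Without DMSO 11, 4 of the 23 passed, 1 higher (GPX8) and 3 lower (CAT, MSRB1 and TXNIP). In that fit 22.3% of all genes passed (13.1% higher and 9.23% lower). DESeq2 called CAT and MSRB1, both lower, where it called 11.3% of all genes (6.65% higher and 4.65% lower). The fit with offsets called 4, all lower, where it called 21.6% of all genes (12.1% higher and 9.52% lower). GPX8, MSRB1 and TXNIP were likewise chosen after their values were seen.

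Heme and iron genes bear on HMOX1, whose reaction releases iron. Of 12, 0 passed with edgeR, where 4.03% of all tested genes passed. DESeq2 called 0 of the 12, where it called 11.3% of all tested genes. With edgeR 3 had an unadjusted p under 0.05, against 3699 of all 17363 tested genes. SLC40A1, the iron exporter ferroportin, was low at 3.05 ± 0.938 and 1.29 ± 0.403 CPM (SD, n = 3 each; adjusted p = 0.124), and TFRC, the transferrin receptor, was at 342.9 ± 50.4 and 448.1 ± 9.62 CPM (adjusted p = 0.171). Without DMSO 11, 2 of the 12 passed, where 22.3% of all genes passed (13.1% higher and 9.23% lower). They were TFRC, higher (0.28, edgeR adjusted p = 0.00377), and FECH, ferrochelatase, lower. FECH falls outside the rule for named genes and was chosen after its values were seen. With offsets for GC content and length 3 of the 12 passed, 1 higher and 2 lower. The offset fit called 21.6% of all genes (12.1% higher and 9.52% lower).

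Zinc genes bear on the metallothioneins. Of 21 genes of zinc sensing and transport, 18 were tested. Where edgeR called 4.03% of all tested genes and DESeq2 11.3%, each called 0 of these 18. With edgeR 1 had an unadjusted p under 0.05, against 3699 of all 17363 tested genes. MTF1, the zinc sensor, was at 52.2, 42.3 and 47.2 CPM in DMSO 10, 11 and 12 and at 51.5, 51.8 and 47.3 CPM in fenbendazole 7, 8 and 9 (log2 fold change 0.09 ± 0.141, adjusted p = 0.743). SLC30A1, a zinc exporter that is a known target of MTF1, was at 531.0, 351.5 and 525.5 CPM in the controls and 342.8, 356.7 and 377.4 CPM with fenbendazole. Only DMSO 11 among the controls falls within the treated range. Its log2 fold change was -0.39 ± 0.175 (edgeR adjusted p = 0.255), and -0.55 without DMSO 11 (2.01e-05). With all libraries and offsets for GC content and length it was -0.63 (edgeR adjusted p = 0.000134). Whether zinc or MTF1 had a part in the change of MT2A was not tested. The transporter genes SLC30A6 (0.46 ± 0.182, adjusted p = 0.207) and SLC39A14 (0.27 ± 0.124, 0.251) had the smallest p. Without DMSO 11, 6 of the 18 tested zinc genes passed, 4 higher and 2 lower, where 22.3% of all genes passed (13.1% higher and 9.23% lower). SLC30A6 (0.30, edgeR adjusted p = 0.0253) and SLC39A14 (0.37, 0.00202) were among them. With offsets for GC content and length 3 of the 18 passed, 1 higher and 2 lower. The offset fit called 21.6% of all genes (12.1% higher and 9.52% lower).

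**Figure D4:**
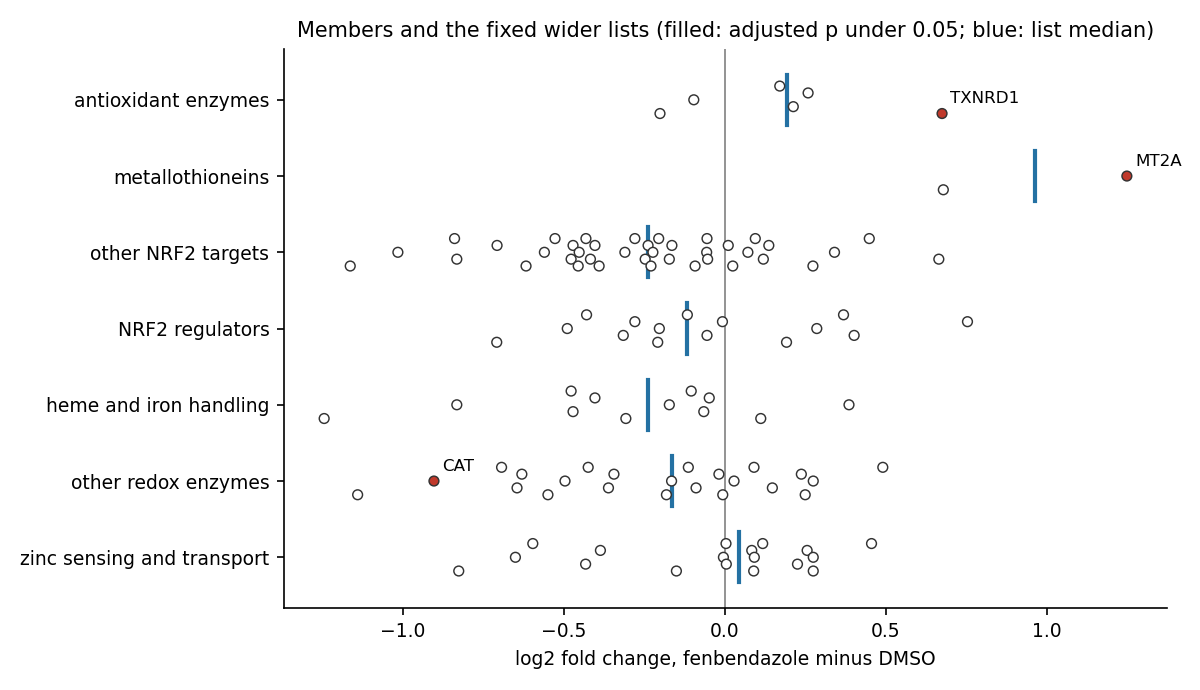
Log2 fold change (fenbendazole minus DMSO) of every tested gene of the members and of the wider lists, 1 point a gene, with the median of each list as a blue bar. TXNRD1, MT2A and CAT, filled, are the only genes of these lists past an adjusted p of 0.05, and the median of the other NRF2 targets lies at -0.24.

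Genes most like MT2A and HMOX1 across the 6 libraries were sought among 11940 tested genes with a mean of at least 5 CPM, by the root mean square difference of centred log2 CPM. Nearest to MT2A were AFAP1L1 (0.0487), the receptor kinase gene AXL (0.0986) and FEN1, a flap endonuclease of DNA replication (0.1). Their log2 fold changes were 1.27, 1.23 and 1.31, close to that of MT2A because they were picked for likeness over these same libraries. Nearest to HMOX1 were S100A3 (0.0739), EVA1A (0.0768) and NOD1 (0.0891), an intracellular receptor for bacterial peptidoglycan. Like HMOX1, these 3 had their lowest level in DMSO 12 and did not pass the test (edgeR adjusted p from 0.555 to 0.642). This too follows from how they were picked.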

How the data were processed

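Poly(A) RNA of 6 SKOV3 libraries was analysed from a table that gives, per the file headers, read counts and FPKM per gene. The counts are whole numbers that the authors deposited without normalisation. The FPKM were computed by the authors, per the file headers. CASAVA 1.8, HISAT2 2.1.0, StringTie 1.3.4b, edgeR and GRCh38 are named in the submitters' processing notes. How reads were counted per gene, with which strand and multi-mapping options and on which annotation, is not given in the sources used here, so overlapping and antisense genes cannot be told apart.

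Counts were tested here with edgeR 4.0.16 (R 4.3.3; quasi-likelihood F test, robust dispersions, TMM scaling, edgeR's filter on low counts), with p-values adjusted by Benjamini-Hochberg over 17363 genes. SE were derived from the F statistic, and intervals are at 95%. The fit was tested on simulated data, where many changes were missed, and not only those of the smallest fold simulated. A gene that did not pass the test may therefore still differ. Alternatives were scaling by median of ratios or by upper quartile, testing without a filter or with at least 1 CPM throughout a group, DESeq2 1.42.0, limma-voom (limma 3.58.1), limma on log2 FPKM plus 1 or 0.1 (with FPKM of at least 1 in 3 libraries, or no filter), offsets for GC content and length (GENCODE release 29, 97.8% of tested genes) and leaving out each library. Counts of all 6 replicate pairs differed beyond sampling noise (chi-square over degrees of freedom 4.86 or more).

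Genes were named by rule: the 9 members, NFE2L2, KEAP1, BACH1, MTF1 and SLC30A1, in each of 6 wider lists the tested genes past the threshold (up to 6) or otherwise the 2 of smallest p, and 3 genes most like HMOX1 and MT2A. The wider lists hold 122 genes, 5 of them in 2 lists. Members and lists were chosen with earlier results of these data known. Plots used matplotlib 3.10.9 (Python 3.11.15).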

Additional observations from a re-analysis of the deposited data

How the results depend on the processing

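No paired analysis was possible because DMSO and fenbendazole libraries carry different numbers. Across 16 alternatives MT2A stayed higher (log2 fold change 1.16 to 1.41, adjusted p 7.55e-09 to 0.0703) and passed in 12, TXNRD1 stayed higher (0.58 to 0.75, adjusted p up to 0.178) and passed in 9, and MT1X stayed higher (0.56 to 0.77) and passed in 4. HMOX1 turned to -0.064 without DMSO 12 (0.364 without DMSO 11 and up to 0.433 with GC and length offsets), GCLM to -0.023 with GC and length offsets, and NFE2L2 to -0.022 without DMSO 11 (0.432 without DMSO 12). Against 700 genes past the threshold, DESeq2 gave 1963, GC and length offsets 3669, unfiltered FPKM 272, and leaving out 1 library 147 to 3946. Against 1 enzyme, upper-quartile scaling and unfiltered FPKM gave 0, offsets 3 and leaving out 1 library 0 to 3. Against 1 metallothionein, DESeq2, offsets and both filtered FPKM fits gave 2, unfiltered FPKM 0, and leaving out 1 library 0 to 1. Against 1 gene of the wider lists, upper-quartile scaling, the filter of 1 CPM and FPKM plus 0.1 gave 2, FPKM plus 1 gave 3, DESeq2 7, offsets 27 and leaving out 1 library 0 to 28. In each fit with 0 enzymes called, 1 enzyme had an unadjusted p under 0.05. The cause was not tested. MT1E, with at most 3 counts per library, was too shallow to test. HMOX1 and MT1X had 40 to 137 counts per library, and whether depth set their standard errors was not tested.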
